A study of Mus musculus with 5 samples.

Results

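The genes described here are the protein-coding genes of the mouse whose symbols begin with Hnrnp, Srsf, Snrp, Sf3a, Sf3b, Prpf or U2af, which together encode the hnRNP proteins, the SR proteins and a large part of the spliceosome. In the GENCODE M21 annotation of GRCm38, the mm10 build, the rule finds 68 of 21938 protein-coding genes, namely 20 Hnrnp, 11 Srsf, 12 Snrp, 3 Sf3a, 6 Sf3b, 13 Prpf and 3 U2af genes. Binding of the transcriptional repressor Gfi1 and of the histone demethylase Lsd1 was measured by ChIP-seq in MG medulloblastomas, and 2 tumors, numbered 39 and 41, gave 1 library for each factor. MG tumors arise from cerebellar stem cells of newborn C57BL/6 mice that carry retroviruses encoding Myc and Gfi1 and are transplanted into the cerebellum of immunodeficient NSG hosts, so that Gfi1 is present from a vector in all samples compared and host cells may be included in the resected tissue. Rabbit polyclonal antibodies were used against both proteins. The control in the sample list was input chromatin pooled from MGB tumors, a name that the sources used here do not define. It was not analysed here. The peak lists hold no expression values, so that neither the tumor identity nor the transcription of these genes could be checked against RNA.

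Splicing removes introns through the spliceosome, which is assembled from small nuclear ribonucleoproteins and many associated proteins. The Snrp genes encode Sm proteins, which form a ring on the small nuclear RNAs, and proteins particular to the U1 and U2 particles. U2AF recognizes the polypyrimidine tract and the 3′ splice site, SF3a and SF3b belong to the U2 particle at the branch point, and the PRPF proteins act mostly in the tri-snRNP and in the activation of the spliceosome. SR proteins usually promote the use of nearby splice sites through exonic enhancers, and hnRNPs often act against them by binding silencers. Gfi1 binds DNA through zinc fingers and recruits Lsd1, which removes methyl groups from histone H3 lysine 4, and the pair is well known from blood cell development.

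Sequences upstream of 5 members are shown because they differ in what they carried, from promoters with the highest peaks to one without any. Each is the 250 bases before the principal transcription start site (TSS) in GRCm38, 5′ to 3′ on the strand of the gene, and CpG dinucleotides are in capitals. None of the bases is annotated as a UTR. Hnrnpul2 and Srsf1 were among the members with the highest peaks, Snrpd2 and Snrpb2 were a high and a low Sm or U2 particle gene, and Snrpn had no peak.
Hnrnpul2, chr19:8819760-8820009, plus strand: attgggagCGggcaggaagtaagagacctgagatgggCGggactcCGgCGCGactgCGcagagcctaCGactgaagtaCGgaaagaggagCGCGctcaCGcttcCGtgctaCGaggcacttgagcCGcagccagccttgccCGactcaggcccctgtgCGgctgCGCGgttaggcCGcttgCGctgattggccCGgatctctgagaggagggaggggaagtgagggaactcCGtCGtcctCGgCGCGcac
Srsf1, chr11:88047123-88047372, plus strand: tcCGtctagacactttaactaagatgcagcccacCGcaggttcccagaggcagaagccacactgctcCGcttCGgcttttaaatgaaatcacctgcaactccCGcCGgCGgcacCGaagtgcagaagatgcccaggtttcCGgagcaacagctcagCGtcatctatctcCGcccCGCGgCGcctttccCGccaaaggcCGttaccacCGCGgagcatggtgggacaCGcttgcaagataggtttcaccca
Snrpd2, chr7:19149472-19149721, plus strand: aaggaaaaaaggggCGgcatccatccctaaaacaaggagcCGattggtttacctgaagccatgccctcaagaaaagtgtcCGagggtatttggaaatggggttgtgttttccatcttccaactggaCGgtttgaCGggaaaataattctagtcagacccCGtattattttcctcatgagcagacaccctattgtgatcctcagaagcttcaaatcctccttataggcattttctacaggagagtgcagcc
Snrpb2, chr2:143062789-143063038, plus strand: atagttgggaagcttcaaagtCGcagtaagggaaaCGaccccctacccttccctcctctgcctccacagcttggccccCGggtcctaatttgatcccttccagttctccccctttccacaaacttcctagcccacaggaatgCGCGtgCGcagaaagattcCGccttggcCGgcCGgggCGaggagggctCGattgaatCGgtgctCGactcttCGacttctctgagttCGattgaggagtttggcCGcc
Snrpn, chr7:60005112-60005361, minus strand: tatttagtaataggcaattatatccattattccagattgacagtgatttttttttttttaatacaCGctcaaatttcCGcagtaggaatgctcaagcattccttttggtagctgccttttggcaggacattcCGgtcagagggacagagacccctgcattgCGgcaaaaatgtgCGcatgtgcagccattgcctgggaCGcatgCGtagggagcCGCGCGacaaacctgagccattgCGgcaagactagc
The 5 stretches hold 26, 19, 6, 16 and 11 CpGs in the order shown. Snrpd2, with 6 CpGs in this stretch, carried higher peaks than Snrpb2, with 16. Within 500 bp on either side of the principal TSS, their counts were nearly equal (56 and 55).

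The 4 lists hold 36836 (Gfi1, tumor 39), 25078 (Gfi1, tumor 41), 30367 (Lsd1, tumor 39) and 33213 (Lsd1, tumor 41) peaks, each with a score whose definition is not given with the lists. A score is therefore given as its percentile within its own list. Read counts are not part of the lists, and the depth behind a single peak is unknown. The study reports the mapped reads of each library. For Gfi1 they were more numerous in tumor 41, the shorter list, than in tumor 39, and for Lsd1 more numerous in tumor 39. A member was read by the highest scoring peak that came within 1000 bp of any of its annotated TSSs. A gene with more TSSs thus had more places where a peak could count. The median number of TSSs was 5.5 for the members, 5 for CpG-rich protein-coding genes and 3 for all protein-coding genes. By subfamily it ran from 3 (Sf3a) to 9 (U2af), with 8 for Hnrnp, 7 for Prpf, 6 for Srsf and 4.5 for Snrp. Over 66 members, it had a Spearman's rho of 0.206 with the mean percentile. Its part in the differences below was not tested. Where 4 values follow each other, their order is Gfi1 in tumor 39, Gfi1 in tumor 41, Lsd1 in tumor 39 and Lsd1 in tumor 41. With 2 tumors for each factor, an exact two-sided permutation test that leaves out the pairing by tumor cannot go below p = 0.333. A test within tumors has fewer arrangements still. No test between the factors was therefore run, and values are set beside the spread between tumors.

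Nearly all splicing factor and hnRNP genes carried both factors at a promoter. A peak lay at a TSS in all 4 lists for 66 of 68 members (97.1%), where 53.1% of all protein-coding genes had one. By list, 65%, 54.3%, 58.5% and 61.7% of all protein-coding genes had a peak. Most members have CpG-rich promoters (64 of 68), and among the 10063 CpG-rich protein-coding genes the share with a peak in all 4 lists was 86%. The Gfi1 and Lsd1 peaks overlapped by 1 bp or more in both tumors at the same 66 members, beside 53% of all protein-coding genes. With each peak cut to its central 200 bp, the overlap remained in both tumors at 29 of the 66 members, beside 40.5% of all protein-coding genes with a peak in all 4 lists. The exceptions were Snrpn and Sf3b5, described with their families.

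The subfamilies differed in how high these peaks ranked. A peak was counted as high-confidence when it was in the upper 20% of the replicate 1 list and had at least 50% of its length in upper 20% peaks of replicate 2, which left 4387 Gfi1 and 5181 Lsd1 peaks. The authors applied such cutoffs to the enrichment, not to this score, and report larger peak sets for both factors. The high-confidence peaks here are therefore not their set. A high-confidence peak of both factors lay at a TSS of 45 members (66.2%), beside 19.5% of all protein-coding genes and 36% of the CpG-rich ones. By family, this was 19 of 20 Hnrnp genes, 9 of 11 Srsf genes, 3 of 3 U2af genes, 4 of 6 Sf3b genes, 5 of 12 Snrp genes, 5 of 13 Prpf genes and 0 of 3 Sf3a genes. The genes of the RNA-binding regulators, Hnrnp and Srsf together, thus reached 28 of 31 (90.3%), and the genes of the other prefixes, mostly parts of the spliceosome itself, 17 of 37 (45.9%). Each factor alone had a high-confidence peak at 47 members, beside 22.9% of all protein-coding genes for Gfi1 and 25.9% for Lsd1. Sf3a2 and Prpf6 had one of Gfi1 only (2.94% of the members, beside 3.46% of all protein-coding genes), Prpf4 and Prpf19 of Lsd1 only (2.94% beside 6.43%), and 19 members had neither (27.9% beside 70.6%). A peak in the upper 20% of all 4 lists gave the same counts in each family and 45 in all, beside 19.9% of all protein-coding genes. The gap between the families depends on the cutoff. With the upper 10%, high-confidence peaks of both factors lay at 20 of 31 Hnrnp and Srsf genes and at 7 of 37 of the other prefixes, beside 8.04% of all protein-coding genes. With the upper 40%, the counts were 29 of 31 and 32 of 37, beside 38.1%, so that the groups came close to each other.

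**Figure D1:**
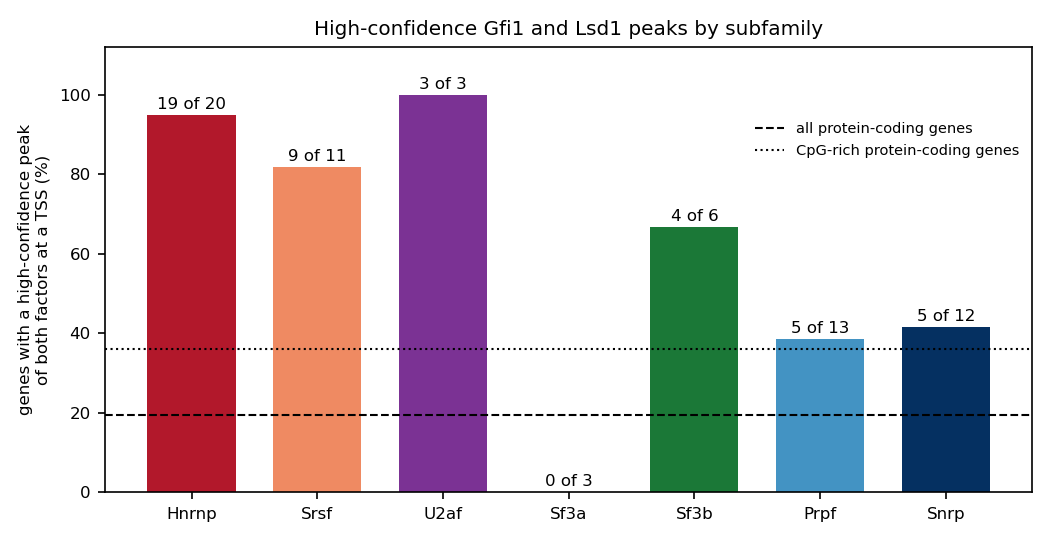
Share of genes (%, y axis) with a high-confidence peak of both Gfi1 and Lsd1 at a TSS, by subfamily (x axis), with the counts above the bars. The dashed line is the share among all protein-coding genes (19.5%) and the dotted line that among CpG-rich ones (36%), and Hnrnp, Srsf and U2af stand far above both, Prpf (38.5%) and Snrp (41.7%) close to the dotted line.

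The percentiles differed between the families too. The median over the members with a peak was 93.1, 92.4, 91.0 and 90.5, where the medians over all protein-coding genes with a peak were 82.5, 77.4, 79.0 and 81.0. As means over the 2 tumors, the members' medians were 92.7 ± 0.473 (SD, n = 2) for Gfi1 and 90.8 ± 0.384 for Lsd1. Hnrnp genes had medians of 98.6, 97.5, 96.2 and 97.3, and Snrp genes of 88.9, 77.2, 78.0 and 84.5. The Hnrnp median was higher than the Snrp median in all 4 libraries, by 9.76, 20.3, 18.2 and 12.9 percentile points. Hnrnp and Srsf genes together exceeded the other prefixes by 10.1 ± 1.44 points (SD over 4 libraries), and the difference lay between 8.33 and 11.8 in each. The 4 libraries come from 2 tumors and share the promoters, so that this SD covers only the spread between libraries.

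**Figure D2:**
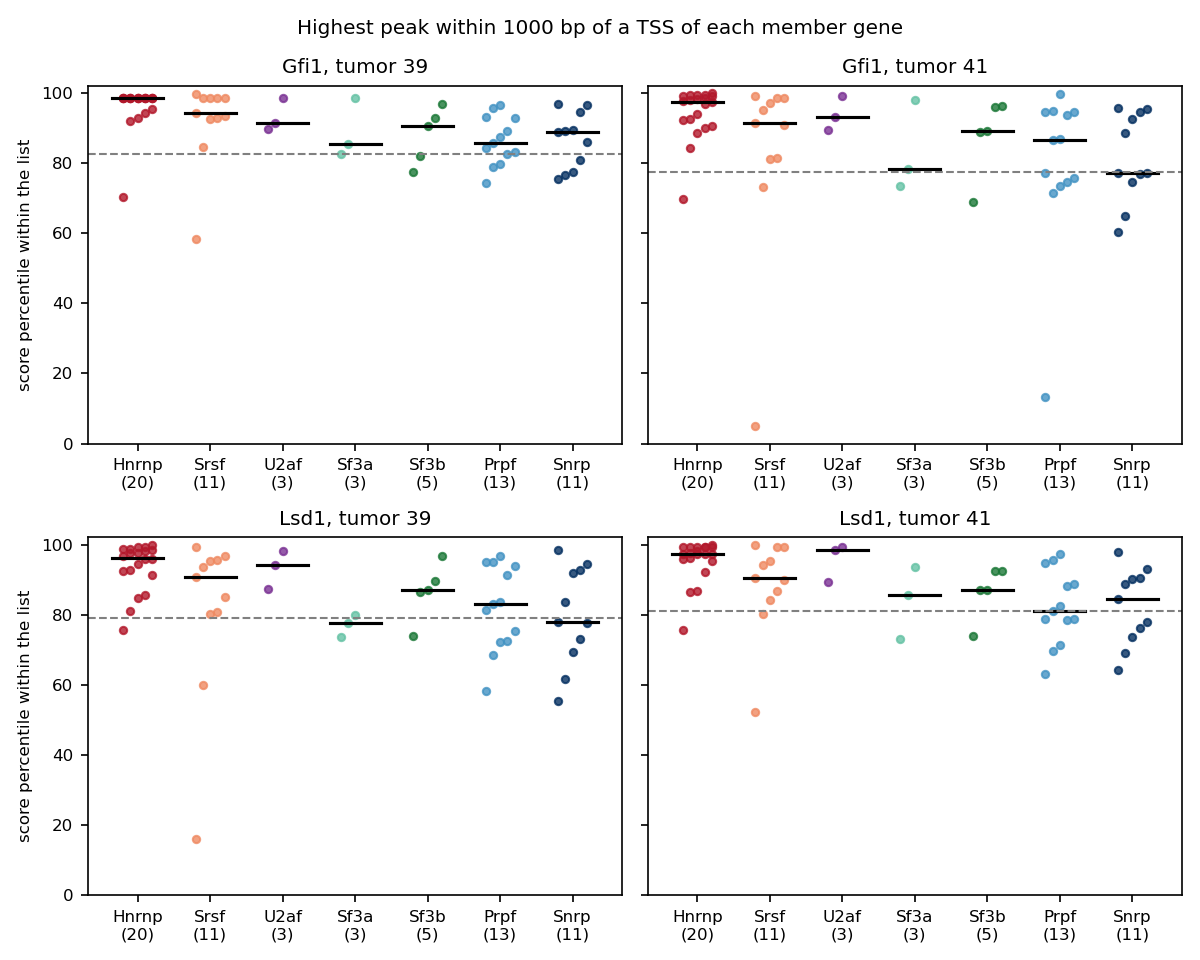
Score percentile (y axis) of the highest peak at each member gene, by subfamily (x axis, number of members with a peak in brackets), in 4 panels for the 4 libraries. Each point is a gene, black bars are medians and the dashed line is the median of all protein-coding genes with a peak, and the Hnrnp medians (96.2 to 98.6) lie above that line in every panel, while the Snrp medians lie slightly below it in Gfi1 of tumor 41 and Lsd1 of tumor 39.

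The hnRNP genes made up 7 of the first 10 members by mean percentile, beside Srsf1, U2af2 and Srsf10. Hnrnpl, a regulator that binds CA-rich RNA, ranked first by mean percentile over the 4 libraries, with 98.6, 99.97, 99.7 and 99.2. Hnrnpa2b1, which has roles in splicing and RNA transport, was at 98.6, 99.5, 99.4 and 99.2. Hnrnpk, a KH-domain protein that binds C-rich sequences, was at 98.6, 99.1, 98.3 and 99.98. These genes were near the top of every list, and the groups of Gfi1 and Lsd1 values overlap. Hnrnpul2 (98.6, 99.6, 99.2 and 99.2) and Hnrnpul1 (98.6, 99.4, 98.8 and 99.2), relatives of the scaffold protein hnRNP U, also stood in the first 5, followed within the first 10 by Hnrnpdl (98.6, 99.2, 97.6 and 99.2) and Hnrnph1 (98.6, 97.9, 98.6 and 99.2). Their order is not resolved in every list, because a score of 3100 is shared by 805 peaks of Gfi1 in tumor 39 and by 12, 113 and 419 peaks of the other lists. At 21, 1, 1 and 9 members the highest peak had exactly this score, which stands at percentiles 98.6, 99.97, 99.7 and 99.2.

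Other hnRNP genes spread further. Hnrnpa1, a repressor of many exons, was at 92.7, 98.7, 97.6 and 97.3, and Hnrnpu at 98.6, 93.9, 92.4 and 96.2. Hnrnpc, which binds uridine tracts, was at 94.3, 97.4, 81.1 and 86.6, so that both Gfi1 values were higher than both Lsd1 values. Hnrnpab went the other way on average, with 95.5, 84.2, 92.7 and 95.2, but its Gfi1 values enclosed those of Lsd1. Hnrnph2, on the X chromosome, was the only Hnrnp gene without a high-confidence peak of either factor. Its percentiles of 70.5, 69.7, 75.5 and 75.6 were the lowest of the family in all 4 lists, and both Lsd1 values were above both Gfi1 values.

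Among the SR protein genes, Srsf1 ranked highest with 98.6, 98.5, 99.4 and 99.2. Srsf10, which can act as a splicing repressor when dephosphorylated, followed with 99.8, 98.5, 96.7 and 99.9. Srsf2, a regulator of exon inclusion, was at 98.6, 97.2, 95.7 and 99.2. These 3 genes belonged to the upper 5% of every list. Srsf3, the smallest SR protein, was at 98.6, 99.2, 95.4 and 95.2. Srsf7 was at 98.6, 91.4, 90.9 and 90.0. Srsf11 was at 92.8, 95.0, 80.3 and 86.8, where the Lsd1 value of tumor 39 comes from a peak at another TSS of the gene than in the other lists. At all of Srsf3, Srsf7 and Srsf11 both Gfi1 values exceeded both Lsd1 values, although for Srsf7 the gap between the factors (91.4 against 90.9) was small beside the spread between the Gfi1 libraries. Srsf9 and Srsf12 had no high-confidence peak. Srsf9 was at 84.5, 73.2, 59.8 and 84.2, a wide spread between the tumors for both factors. Srsf12, a tissue-restricted SR protein, was at 58.4, 5.06, 16.1 and 52.2, in every list the lowest of all members with a peak. Its peaks were also the narrowest on average (938 bp) and lay mostly downstream of the TSS that each covered. They reached 84, 33, 49 and 256 bp upstream of it and 1107, 668, 797 and 752 bp downstream. This was the principal TSS in Gfi1 of tumor 39. In the other lists it was a TSS further downstream, and the peaks began downstream of the principal TSS.

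All U2af genes carried high-confidence peaks of both factors. U2af2, the large subunit that reads the polypyrimidine tract, was at 98.6, 99.2, 98.1 and 99.2. U2af1, the small subunit that contacts the AG of the 3′ splice site, was at 89.9, 89.4, 87.3 and 89.4. U2af1l4, a paralog of the small subunit, was at 91.5, 93.0, 94.2 and 98.5, with both Lsd1 values above both Gfi1 values. Its TSS is 60 bp from that of Psenen on the opposite strand, and the Lsd1 peak of tumor 41, 7863 bp wide, reached 6077 bp upstream, where the other lists held separate peaks.

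The SF3 genes spread within each complex, with median mean percentiles of 88.4 over 5 Sf3b genes and 81.7 over 3 Sf3a genes. Sf3b4 was at 93.0, 95.9, 96.6 and 92.4. Sf3b1, the core SF3b subunit that clamps the branch point, was at 96.8, 96.4, 89.5 and 92.6. Sf3b6, which lies at the branch point adenosine, was at 77.6, 68.9, 73.9 and 73.8. Only Sf3b6 of these fell below the upper 20% in all lists. Sf3a1 was at 85.4, 78.3, 77.6 and 85.6, and Sf3a3 at 82.6, 73.4, 73.7 and 73.2. Sf3a2 stood apart from them with 98.6, 97.9, 79.9 and 93.6. Both Gfi1 values of Sf3a2 were above both Lsd1 values, and Lsd1 in tumor 39 missed the upper 20% narrowly, which kept the gene out of the high-confidence Lsd1 set. The Lsd1 peaks at Sf3a2 were 10256 and 10400 bp wide against 3700 and 4750 bp for Gfi1, since in the Gfi1 lists the upstream region held separate peaks.

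Sf3b5, which encodes a small SF3b subunit, had no peak at its annotated TSS at position 13005343 of chromosome 10. RefSeq places the start of this gene 3107 bp downstream, at 13008450, and there a peak lay in all 4 lists, at percentiles 89.5, 84.6, 81.5 and 84.6. The missing peak of Sf3b5 thus depends on which annotation gives the start.

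The PRPF genes ranged widely. Prpf31, a tri-snRNP protein linked to retinitis pigmentosa, was the highest with 95.8, 99.6, 95.0 and 95.5. Prpf19, a ubiquitin ligase that helps to activate the spliceosome, was at 84.4, 77.3, 81.3 and 88.6. Prpf8, the largest protein at the catalytic core, was at 82.6, 75.9, 75.3 and 71.3. Prpf8 was below Prpf31 in every list, and its Gfi1 values were both above its Lsd1 values. Prpf3, a protein of the U4/U6 particle, was at 83.2, 73.4, 68.6 and 69.7, and Prpf18, which acts in the second step of splicing, at 74.4, 71.4, 58.1 and 63.0. Prpf3 and Prpf18 both had higher Gfi1 than Lsd1 values in all pairs of libraries. Prpf40b, a protein linked to the U1 particle, was at 78.9, 13.2, 72.6 and 78.8. The low value came from Gfi1 in tumor 41, where the promoter held 2 adjoining peaks of 947 and 494 bp in place of a single peak of 2104 to 2258 bp as in the other lists. At Prpf6, another tri-snRNP protein, the Lsd1 peak of tumor 39 was 5565 bp wide and at percentile 96.8, against 2608 bp and 78.7 in tumor 41.

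The Snrp genes had the lowest family median of the mean percentiles over 4 libraries (79.4). In single libraries their median was the lowest only in Gfi1 of tumor 41, and that of Sf3a or Prpf in the others. Snrpd2, an Sm protein, was the highest with 96.6, 95.7, 98.4 and 97.9, and both Lsd1 values were above both Gfi1 values. Snrpd3, also an Sm protein, was at 94.6, 94.7, 92.6 and 93.0, with the reverse order. Snrpa, a protein of the U1 particle, was at 88.9, 95.4, 94.3 and 90.5. Together with Snrpb, which encodes the Sm proteins B and B′ (96.8, 92.5, 83.6 and 90.1), and Snrpg, these were the 5 Snrp genes with high-confidence peaks of both factors. Snrpa1, a protein of the U2 particle, was at 89.2, 77.2, 69.4 and 73.5. Snrpb2, its partner in that particle, was at 76.6, 65.0, 61.6 and 64.1. Snrpd1, a further Sm protein, was at 75.4, 60.4, 55.3 and 69.2. Genes for partners in one particle thus differed: of the Sm proteins D1, D2 and D3, Snrpd2 and Snrpd3 were in the upper 10% of every list and Snrpd1 in the upper 20% of none.

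Snrpn encodes SmN, a homolog of the Sm B proteins used in neurons, and is imprinted and expressed from the paternal copy. It was the only member without a peak at any start that was examined. The nearest peak to its annotated TSSs was 22360 bp away in Gfi1 of tumor 39 and 774818 to 775024 bp away in the other lists. RefSeq places its start 309958 bp from the closest TSS used here, at position 60450177 of chromosome 7, and no list held a peak there.

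The median peak at the splicing factor genes was wider than that over all protein-coding genes in every library, and narrower than that at ribosomal protein genes. The median width of the members' peaks was 2670, 2804.5, 3032 and 2848.5 bp, against 2085.5, 2185, 2516 and 2380 bp over all protein-coding genes with a peak and 3175, 3589, 4265 and 3832 bp at the Rpl and Rps genes. The Snrp medians of 2312, 2177, 2360 and 2282 bp were below those of all protein-coding genes in every library but the first. The median reach from the TSS was 1138 ± 49.9 bp upstream and 1454 ± 109 bp downstream for Gfi1 (SD, n = 2 tumors), and 1289 ± 48.4 and 1518 ± 24.4 bp for Lsd1. Downstream reach was the larger in every library. Hnrnp genes had the longest upstream reach of the larger families, 1610 bp for Gfi1 and 1725 bp for Lsd1, where Snrp genes had 687 and 885 bp. Width and mean percentile went together over the 66 members (Pearson r 0.676, Spearman rho 0.853), as a description over genes that share libraries, and a wider peak and a higher score come from the same reads.

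**Figure D3:**
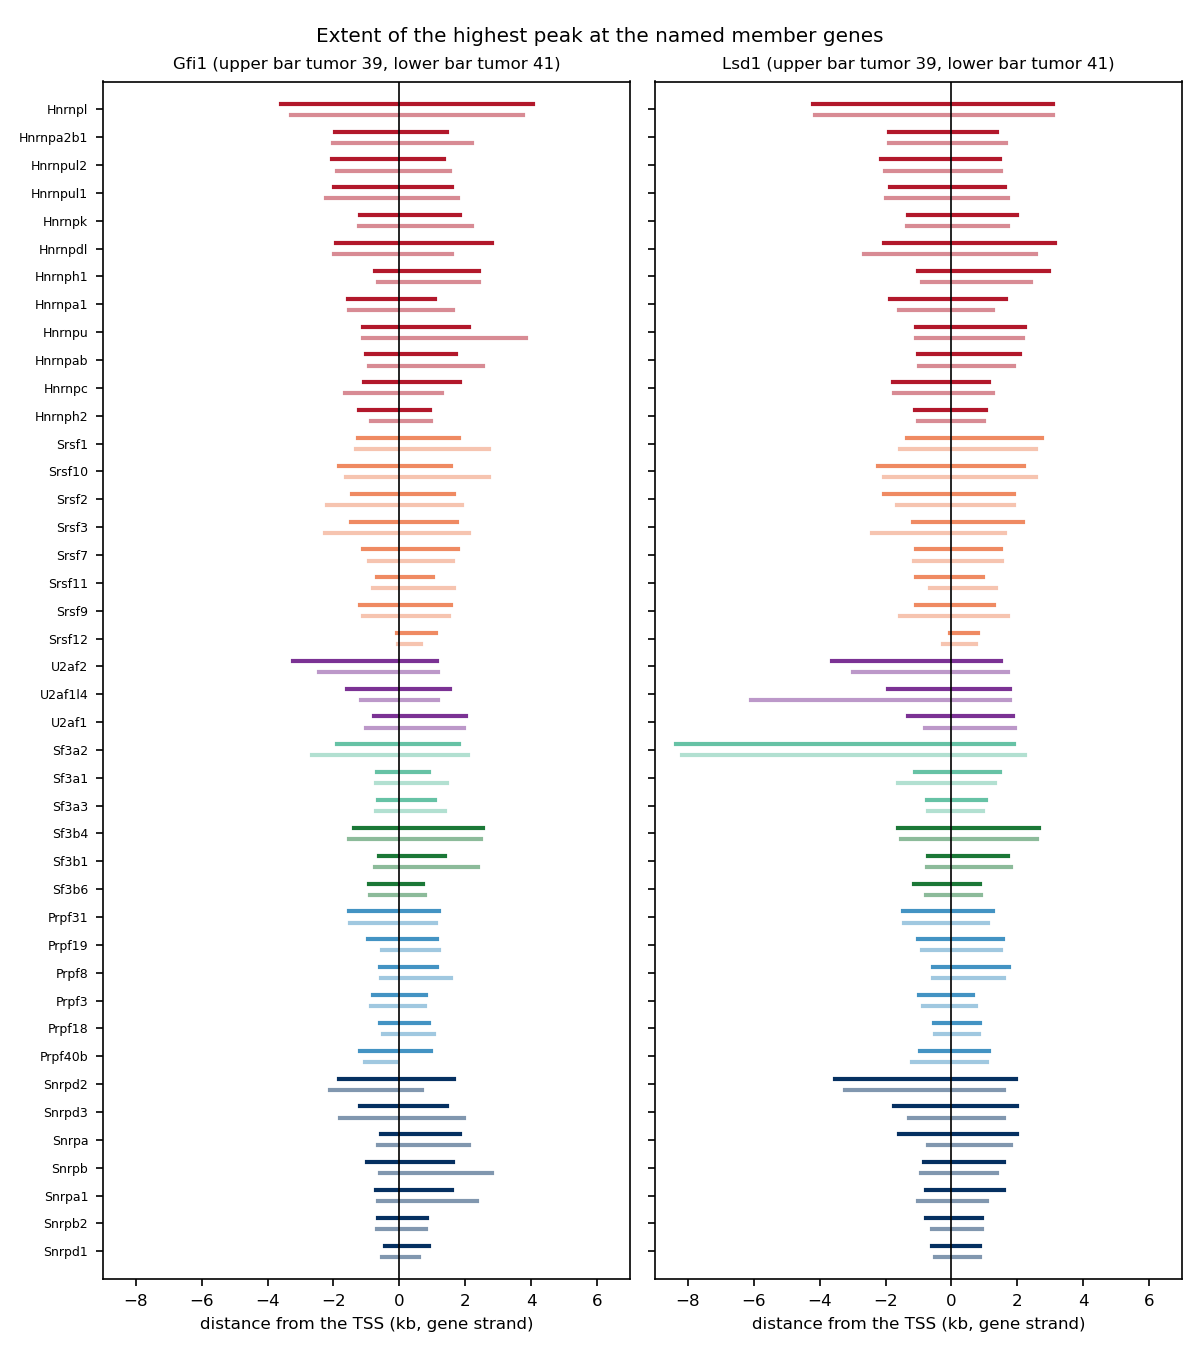
Extent of the highest peak at the 42 members with peaks whose values are given singly, as distance from the TSS it covers, or from the closest one where it covers none (kb on the gene strand, x axis), for Gfi1 (left) and Lsd1 (right), with 2 bars per gene for tumors 39 and 41 and colors for subfamilies. Genes are ordered by mean percentile within each subfamily, and the long bars are Hnrnpl (7040 to 7636 bp) and the Lsd1 peaks of Sf3a2 (10256 and 10400 bp) and of U2af1l4 in tumor 41 (7863 bp).

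The widest mean peaks were those of Hnrnpl (7302 bp), Sf3a2 (7277 bp), Hnrnpdl (4692 bp), U2af2 (4467 bp) and U2af1l4 (4259 bp). At Hnrnpl, on chromosome 7 from 28808541 to 28822266, the highest peaks were 7636, 7040, 7295 and 7236 bp wide, and in Gfi1 of tumor 39 the peak ran from 28807312 to 28814947. Further peaks followed along the gene, so that 99.9%, 85.6%, 90.9% and 88.5% of its 13726 bp lay in peaks. The peaks of Hnrnpl thus covered nearly the whole gene, exons and introns alike, and the mean share of 91.2% was the highest of all members, ahead of 76.9% at U2af1l4 (2065 bp long) and 73.3% at Hnrnpa0 (2678 bp). At Hnrnpl, the last peak that touched the gene ran past its end at 28822266 in every list, in Gfi1 of tumor 39 to 28828516. Peaks inside the gene and more than 1000 bp from any TSS were counted separately: 17, 15, 11 and 14 members had one (25%, 22.1%, 16.2% and 20.6%), beside 24.6%, 18.3%, 21.2% and 22.5% of all protein-coding genes.

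Gfi1 and Lsd1 ranked the members alike in most cases. Over the 66 members, the percentiles of 2 libraries had Spearman's rho from 0.763 to 0.881, and pairs of the same factor lay in the same range as pairs of different factors. The libraries share the promoters, the tumors and the input. Both Gfi1 percentiles were above both Lsd1 percentiles at 19 of 66 members (28.8%), where this held for 16.5% of all protein-coding genes with 4 peaks. The reverse held at 6 members (9.09%), beside 15.4% of those genes. Peaks tied at the score of 3100 share a percentile that differs between the lists, so that small differences near the top, as at Srsf1 and Hnrnph1, cannot be read. Of the 19, 4 were Hnrnp, 3 Srsf, 4 Snrp, 5 Prpf and 3 SF3 genes. The largest mean differences were at Prpf18 (12.3 points), Hnrnpc (12.1), Snrpa1 (11.7), Sf3a2 (11.5) and Srsf11 (10.4). The value at Srsf11 sets peaks at different TSSs against each other, since the Lsd1 peak of tumor 39 lay at another TSS. In the other direction, Prpf40b (-29.6 points), Hnrnph2 (-5.44), Prpf19 (-4.14), Hnrnpab (-4.13) and U2af1l4 (-4.11) had the largest mean differences, and at Prpf40b the value rests on the divided peak in Gfi1 of tumor 41. Only Hnrnph2 and U2af1l4 of these 5 had both Lsd1 values above both Gfi1 values.

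**Figure D4:**
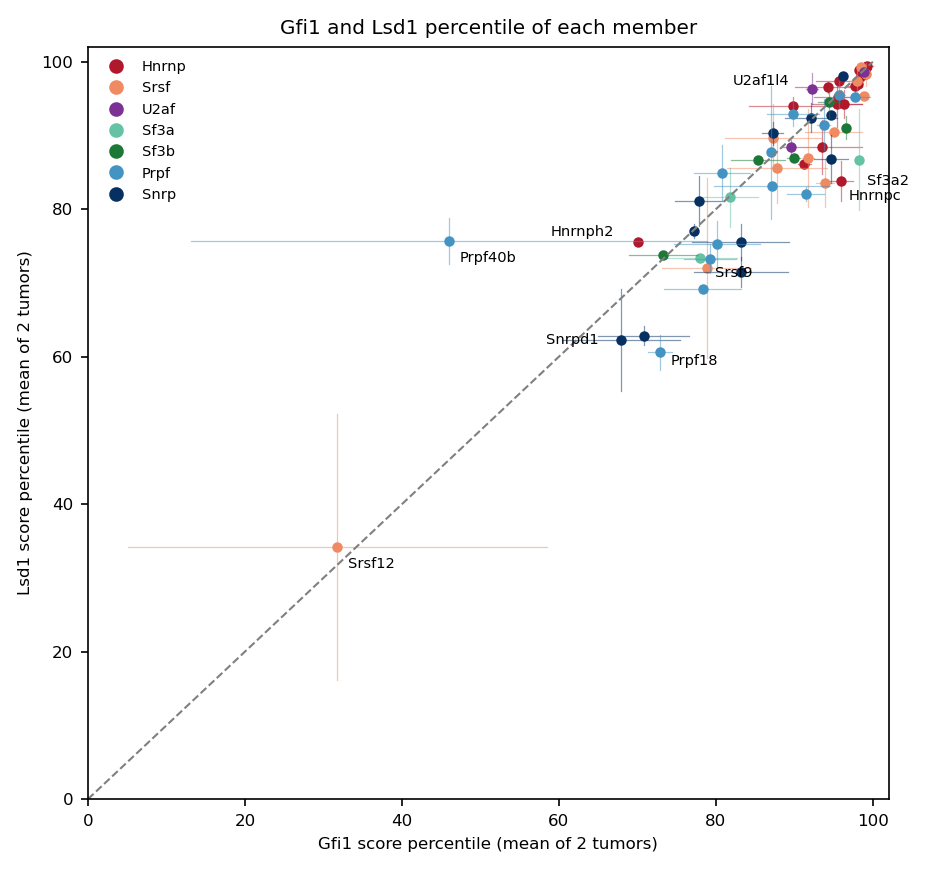
Mean Gfi1 percentile (x axis) against mean Lsd1 percentile (y axis) of each member with 4 peaks, where lines span the values of the 2 tumors, colors mark subfamilies and the dashed line marks equal values. Most genes lie close to the line in the upper right corner, Hnrnpc, Sf3a2 and Prpf18 lie below it, and Srsf12 and Prpf40b stand apart with long lines in Gfi1 (5.06 to 58.4 and 13.2 to 78.9).

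The midpoints of the Gfi1 and Lsd1 peaks were close together. Their median distance was 126 bp in tumor 39 and 149.5 bp in tumor 41, against 160.5 and 183 bp over all protein-coding genes with overlapping peaks. They lay within 200 bp of each other at 47 members in tumor 39 (71.2%, beside 56.5% of all) and at 38 members in tumor 41 (57.6%, beside 53.1%). The distances are small beside the widths of the peaks, and the lists do not carry summits.

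Promoter sequence differed along with the families. Within 500 bp of the principal TSS, the median CpG count was 71 for the members and 43 for all protein-coding genes, 98 for Hnrnp and Srsf genes and 62 for the other prefixes. CpG count and mean percentile had a Spearman's rho of 0.479 over the 66 members and 0.294 over 11653 protein-coding genes, as a description. The count is taken at the principal TSS, while the highest peak can lie at another TSS of the gene, as at Hnrnpm and Hnrnpf. In the range of 60 to 79 CpGs, which holds members of both kinds, 7 of 7 Hnrnp and Srsf genes and 8 of 15 other members had high-confidence peaks of both factors, beside 38.1% of all protein-coding genes with as many CpGs. In the range of 40 to 59 CpGs the counts were 1 of 3 and 5 of 14, beside 23.3%. CpG count therefore moved with the difference between the families, and its part in that difference was not tested.

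**Figure D5:**
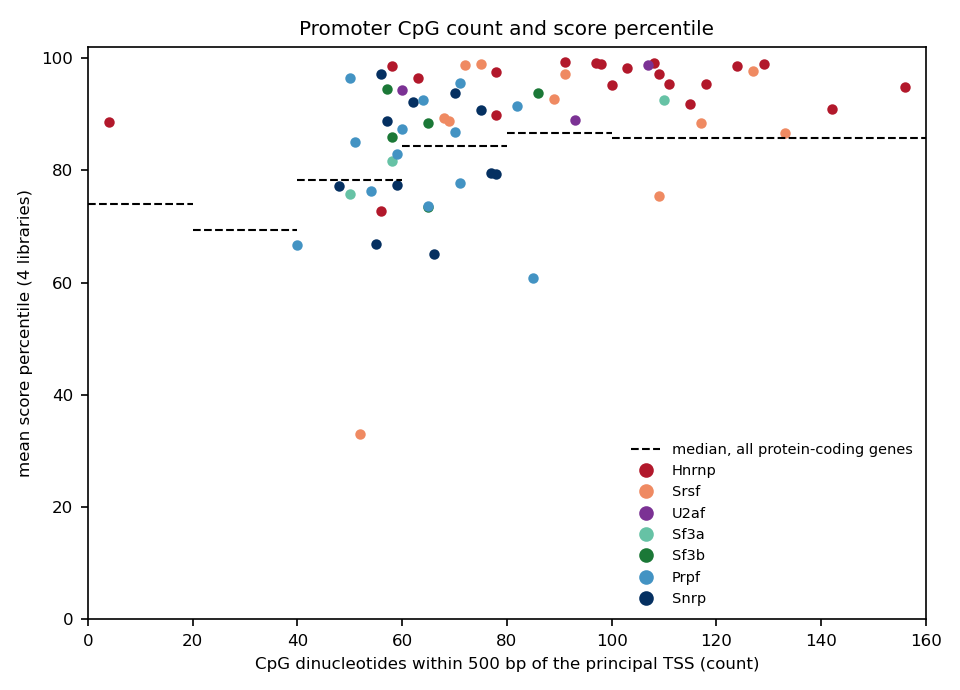
CpG count within 500 bp of the principal TSS (x axis) against the mean percentile over 4 libraries (y axis) of each member with 4 peaks, with colors for subfamilies and dashed lines for the medians of all protein-coding genes with 4 peaks in each CpG range. Most Hnrnp genes lie at 90 CpGs or more and above the dashed lines. Hnrnpm, whose principal TSS has 4 CpGs, stands apart at the left, but its highest peaks end short of that TSS and cover another one.

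Many members share their promoter with another gene. A protein-coding gene on the opposite strand started within 1000 bp of a TSS at 24 of 68 members (35.3%), beside 12.3% of all protein-coding genes. Examples are Hnrnpa2b1 with Cbx3 (466 bp apart), Hnrnpa1 with Cbx5 (616 bp), both partners encoding heterochromatin proteins, Hnrnpk with Rmi1 (51 bp) and Sf3a2 with Plekhj1 (4 bp). High-confidence peaks of both factors lay at 18 of these 24 (75%) and at 27 of the other 44 members (61.4%). Over all protein-coding genes, the shares were 50.9% with such a neighbour and 15.0% without. A peak at such a promoter cannot be assigned to one of the genes.

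Letters tied to known motifs were counted on both strands, from 250 bp upstream to 50 bp downstream of the RefSeq start, in the 59 members that the RefSeq promoter table holds. AATC, the core of the Gfi1 site, was in 71.2% of them and in 71.4% of 16539 protein-coding promoters, and the longer AAATC, which contains AATC, in 27.1% and 33.5%. AATCAC was in 10.2% and 9.85%, and AAATCAC in 3.39% and 2.79%. Of the 4 forms of the Gfi1 site, AAATC had the share farthest from that of all promoters. CCGGAAG, bound by ETS factors, was in 19 members (32.2%) beside 12.4% of all promoters, with 13 of 30 among the spliceosome prefixes and 6 of 29 among Hnrnp and Srsf. CACGTG, the E-box of Myc and its relatives, was in 8 (13.6%) beside 8.07%. Both CCGGAAG and CACGTG contain a CpG, and 94.1% of the members are CpG-rich, beside 45.9% of all protein-coding genes. Shares of these motifs among CpG-rich promoters were not counted. The other 3 motifs searched, longer ones that include the NRF1 palindrome, were each in 0 or 1 of the 59 members, beside 0.713% to 1.38% of all promoters. These matches describe the letters in this window and not binding sites.

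Splicing genes outside the prefixes allow the families to be placed. Of 51 further spliceosome and exon junction genes, 51 had a peak in all 4 lists and 26 (51.0%) high-confidence peaks of both factors, with a median of the mean percentiles of 85.7. Ddx42, an RNA helicase of the U2 particle, was the highest (98.6, 99.6, 98.9 and 99.2) and Lsm5 the lowest (72.0, 56.8, 37.3 and 57.8). Of 31 further regulators of splicing, 31 had a peak in all 4 lists and 24 (77.4%) high-confidence peaks of both, with a median of 92.1. Son, Ewsr1 and Tardbp led them, and Srpk2, a kinase of SR proteins, was the lowest (82.0, 17.9, 46.8 and 66.5). The regulators stood above the spliceosome genes in these lists, in the same order as Hnrnp and Srsf and the other prefixes. The lists were chosen with earlier results of these data known, so that this is no independent repeat. Their median CpG counts differed as well, with 90 for the regulators and 69 for the spliceosome genes.

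Splicing regulators listed as tissue-restricted, mostly those of neurons, had shares of peaks not far from those of all genes, and lower median percentiles. Whether each listed gene is restricted to a tissue was not checked. Of 20 such genes, 13 had a peak in all 4 lists (65%, beside 53.1% of all protein-coding genes) and 3 high-confidence peaks of both factors (15%, beside 19.5%), namely Rbfox2, Srrm4 and Celf6, and their median CpG count was 73. The CpG-rich protein-coding genes, whose median CpG count was 73 too, had shares of 86% and 36%. The median percentiles of the tissue-restricted genes with a peak were 79.2, 47.3, 76.2 and 73.5. Over all protein-coding genes with a peak they were 82.5, 77.4, 79.0 and 81.0. Gfi1 in tumor 41, the shortest list, stood lower than the other lists. Nova1, a regulator of neuronal exons, was at 66.2, 35.1, 57.6 and 70.1, and Rbfox3, known as the antigen NeuN, at 91.7, 27.7, 91.1 and 80.3. Rbfox1 had no peak in any list. Without Gfi1 of tumor 41, 5 of the 20 genes reached high-confidence peaks of both factors, beside 24.4% of all protein-coding genes.

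Other housekeeping families served as a comparison. Genes of cytosolic ribosomal proteins (Rpl and Rps) had high-confidence peaks of both factors in 56 of 83 cases (67.5%), translation initiation factors (Eif) in 23 of 55 (41.8%) and proteasome subunits (Psm) in 18 of 50 (36%). The splicing members as a whole (66.2%) were thus near the ribosomal protein genes, Hnrnp and Srsf (90.3%) above them, and Snrp (41.7%) and Prpf (38.5%) near the initiation factors and the proteasome.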

How the data were processed

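Gfi1 and Lsd1 ChIP-seq of MG tumors 39 and 41 was used, with same-numbered libraries taken from one tumor. The authors aligned reads to mm10 with BWA 0.6.2, removed duplicates and called peaks in each library with MACS against input. The deposited lists give positions and a score, whose definition is not given in the sources used here and which was used only as a percentile (mean rank within a list). The authors annotated genes with another GENCODE release than M21, used here.

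Peaks within 1000 bp of a TSS were assigned to every gene with that TSS, and the highest score was kept. CpG-rich means an observed to expected CpG ratio of at least 0.6 and a GC content of at least 50% in 1001 bp. Promoters for the motif counts are from RefSeq for GRCm38. No test was run, and values were set beside those of all protein-coding genes. The members and lists were chosen with earlier results of these data known. Named are the 10 highest and 10 lowest members by mean percentile, members without a peak, the 5 widest, the 5 with the largest difference between factors each way, the extremes of each subfamily and a fixed list. Genes named outside the members are examples chosen after their values were seen. The counting was tested on simulated data, where 7 of 7 quantities were recovered. Python 3.11.15, numpy 2.4.6, scipy 1.17.1 and matplotlib 3.10.9 were used. A few items are not reported here. Alternatives varied the window, the TSSs, the score cutoff, the overlap, the libraries and the promoter window.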

Additional observations from a re-analysis of the deposited data

Results flagged for a closer look

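The sign of the difference between the factors changed with the tumor in 2 families. The median Snrp percentile was higher for Gfi1 than for Lsd1 by 10.8 points in tumor 39 (88.9 against 78.0), and the Gfi1 minus Lsd1 difference was -7.28 points in tumor 41 (77.2 against 84.5). For Sf3a the same differences were 7.73 points in tumor 39 and -7.24 points in tumor 41. The difference between the tumors was not tested, since each tumor gave 1 library for a factor. The other families kept the sign of their difference in both tumors.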

How the results depend on the processing

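Of 142 alternative values for 32 results, 116 stayed within the limit used. This limit was 1.5 times for a count and the SD between tumors for a median. For a motif share it was the binomial confidence interval of the main share. For the percentile and width medians of each factor, leaving out either of its libraries stays within the SD by construction. Those values are among the 116 and were no test. With the upper 10% as the cutoff, 27 members and 7 of the other prefixes had high-confidence peaks of both factors, and with the upper 40%, 32 of the other prefixes did. Percentiles taken only among peaks at TSSs gave medians of 86.9 for Gfi1 and 83.1 for Lsd1, and the summed width of all Gfi1 peaks at a gene gave 2860 bp. When peaks were cut to their central 200 bp, those of the factors overlapped in both tumors at 29 members. With members without a peak set to 0, the Sf3b median was 87.2. Within 500 bp of the TSS, 97.1% of the members held AATC and 63.2% AAATC, where the window is longer. Leaving out each library in turn gave medians of 96.7 to 97.3 for Hnrnp, 88.3 to 92.4 for Srsf, 79.0 to 81.5 for Snrp, 80.4 to 83.1 for Sf3a, 87.7 to 88.9 for Sf3b and 84.3 to 86.0 for Prpf, and 2 to 5 tissue-restricted regulators with high-confidence peaks, 5 without Gfi1 of tumor 41 and 2 without Lsd1 of tumor 39. Pairing of the libraries by tumor comes from the labels, and without this block, with Gfi1 of one tumor set against Lsd1 of the other, the overlap count was again 66. The lists give no read counts at single promoters, so that no limit can be set on a missing peak, and the score ties limit the order of the highest members.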
